A study of Mus musculus with 55 samples.

Results

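The transcripts of 4 genes of heme and iron handling were followed through the cortex of mice after diffuse traumatic brain injury (TBI): Hmox1, Cp, Slc11a1 and Trf. They were taken by name, as 4 of the 799 genes of an nCounter panel. That hybridisation assay counts coloured barcodes assigned to each gene, here on pre-amplified RNA. The 55 libraries came from 55 mice, and each library was 1 mouse. Mice were adult male C57BL/6 animals aged 8 to 10 weeks, without any engineered allele.

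PLX5622, an inhibitor of the receptor CSF1R on which microglia depend, was given in AIN-76A chow at 1200 mg/kg, and vehicle mice ate the same chow without it. Injured mice ate their diet for 14 days before TBI and until the tissue was taken. On the PLX5622 diet there were 6 naive mice, 8 mice at 1 day, 9 at 7 days and 7 at 30 days after TBI, and on the vehicle diet 7 naive mice, 6 at 1 day, 7 at 7 days and 5 at 30 days. How long the naive mice ate their diet is unstated in the labels. Each diet had 1 naive group against which all days were set, so time on the diet and time after injury cannot be told apart. RNA came from pieces of cortex chosen on neighbouring sections stained for CD11b, which marks microglia and other myeloid cells, so the values describe those pieces and not the whole cortex. The title of the naive vehicle mouse 695 carries 7 days, but its injury label is naive and it was kept in that group.

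Heme set free from damaged cells or blood is opened by heme oxygenase 1, the product of Hmox1, into iron, biliverdin and carbon monoxide. Iron that leaves a cell is oxidised by ceruloplasmin, the product of Cp, so that it can bind transferrin, the product of Trf, which carries it to cells with the transferrin receptor. The product of Slc11a1, also called Nramp1, moves iron and manganese out of the phagosomes of macrophages, and C57BL/6 mice are known to carry a variant of it that impairs this transport, so that here only the transcript was followed. In brain, Cp is best known from astrocytes and Trf from oligodendrocytes and the choroid plexus, Slc11a1 is a gene of microglia and other phagocytes, and Hmox1 is induced in many cell types by heme and oxidative stress.

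Depth differed between mice: total counts ran between 176038 and 1208609 with a median of 519047, and group medians between 424759 and 616932. All values below are barcode counts divided by a size factor for each mouse ("normalised counts"). Differences are log2 fold changes of normalised count + 1 with their standard error (SE), from 1 limma fit over all genes and mice with the nCounter cartridge as a covariate. A gene was called where the p-value, adjusted by Benjamini-Hochberg over the 799 genes, was under 0.05. The 12 measured microglial marker genes of a list of 16 had summed levels of 168 to 332 in naive PLX5622 mice, against 2268 to 2818 in naive vehicle mice, and 11 of the 12 were called lower. Of the markers of blood cells and of choroid plexus that were looked for, 0 of 5 and 0 of 6 are on the panel, so neither source was measured.

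**Figure D1:**
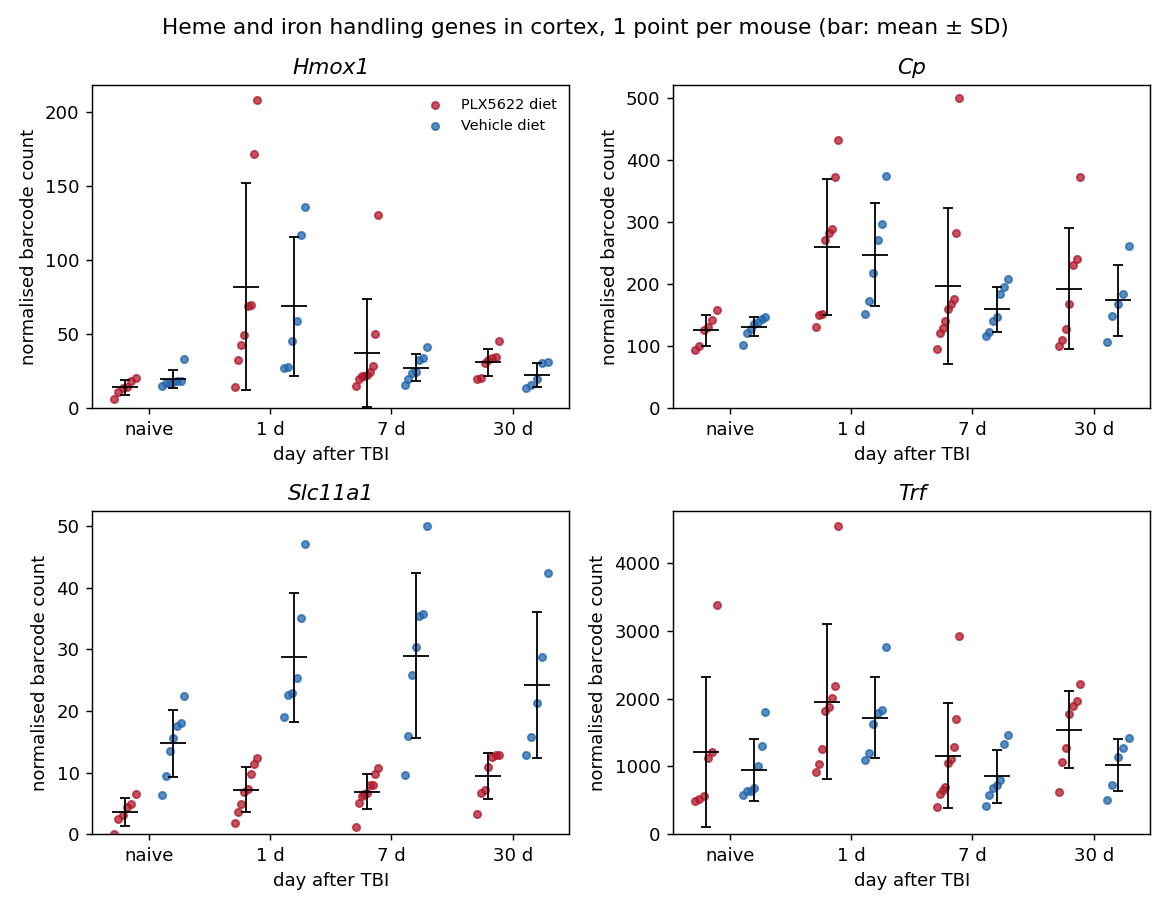
Normalised barcode counts of Hmox1, Cp, Slc11a1 and Trf (vertical axes) in every mouse by day after TBI (horizontal axes), with PLX5622 mice in red left of vehicle mice in blue and black bars for mean ± SD. Hmox1 peaks at 1 day on both diets, at up to 208 normalised counts in a PLX5622 mouse and 136 in a vehicle mouse, and Slc11a1 stays at or below 12.9 in all PLX5622 mice.

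Hmox1, which encodes the inducible enzyme of heme breakdown, was higher 1 day after TBI on both diets. In PLX5622 mice the lowest, median and highest values were 14.2, 59.4 and 208 normalised counts at 1 day, against 6.59, 14.1 and 20.4 in naive mice. In all, 7 of the 8 injured mice lay above every naive mouse, and the lowest injured mouse lay inside the naive range. Hmox1 rose by 2.28 ± 0.39 (log2, SE; n = 8 and 6), or 4.85-fold, with an adjusted p of 8.8e-05 in limma. Of all 799 genes 7.01% were called in that comparison, and of the 4 heme and iron genes 2 were, Hmox1 and Cp. Within the 3 RNA extraction batches the difference of the log2 means was 2.22, 2.20 and 1.72, and without any 1 mouse the fitted value stayed between 1.99 and 2.51 and was called.

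In vehicle mice Hmox1 reached 27.4, 52.2 and 136 normalised counts (lowest, median, highest) at 1 day, against 15.0, 18.1 and 33.1 in naive mice. All 6 injured mice were above the naive median and 4 were above the highest naive mouse, mouse 714. The rise was 1.51 ± 0.41 (log2, SE; n = 6 and 7), or 2.84-fold, with an adjusted p of 0.0385 in limma. Hmox1 was the only one of the 4 genes called there, where 2.25% of all genes were. That call rested on single mice. It was lost without 1 of the injured mice 697, 726 or 741 (1.27, 1.34 and 1.5, adjusted p 0.128, 0.133 and 0.0822 in limma). It was also lost without naive vehicle mouse 691, 706, 732, 737 or 742 (1.52, 1.43, 1.49, 1.48 and 1.497, adjusted p 0.0520, 0.0894, 0.0671, 0.0611 and 0.0650), or PLX5622 mouse 711 or 717 (both 1.49, adjusted p 0.0514 and 0.05003). Within the extraction batches the difference was 3.00, 0.82 and 1.92, the first with 1 injured mouse.

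The size of the change did not pass a test of difference between diets: at 1 day the rise in PLX5622 mice minus that in vehicle mice was 0.77 ± 0.57 (log2, SE, adjusted p 0.935 in limma). In all 1 of the 799 genes, 0.125%, was called in that interaction, and it was none of the 4. At 1 day itself, PLX5622 minus vehicle was 0.23 ± 0.39 (adjusted p 0.855), and the mice of both diets overlapped over most of their range.

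After day 1 Hmox1 was lower again in most mice. At 7 days PLX5622 mice had 15.2, 22.5 and 131 normalised counts (lowest, median, highest), the top value being mouse 709, and at 30 days 19.8, 32.8 and 45.3. Compared with the naive PLX5622 mice, all 9 mice at 7 days and all 7 at 30 days were above the naive median. The differences were 1.14 ± 0.37 and 1.19 ± 0.40 (log2, SE), with adjusted p 0.102 and 0.127 in limma, and neither was called. DESeq2 on the recovered counts called the first (1.28, adjusted p 0.0489), and a fit of the 2 groups alone called the second (1.12, adjusted p 0.00994). Of all genes, 1.5% were called at 7 days and 2.25% at 30 days.

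The step between day 1 and day 7 in PLX5622 mice was -1.13 ± 0.35 for Hmox1 (log2, SE, adjusted p 0.0572 in limma), just outside the threshold, with 8 of 9 mice at 7 days below the median of day 1. It was called by edgeR (-1.30, adjusted p 0.0288), by DESeq2 (-1.38, adjusted p 0.00462), with each mouse centred on its median gene (-1.13, adjusted p 0.0316) and without each of 7 mice in turn, among them mouse 709 (-1.35, adjusted p 0.0136). The other 6 were PLX5622 mice 693, 696 and 725 at 1 day (-1.37, -1.22 and -1.31, adjusted p 0.0100, 0.0392 and 0.0355), PLX5622 mouse 734 at 7 days (-1.22, adjusted p 0.0499), and vehicle mice 686 and 697 (-1.15 and -1.14, adjusted p 0.0483 and 0.0479). With each of the 55 mice left out in turn, the step lay between -1.37 and -0.87, with adjusted p up to 0.272 in limma. Of the 11 alternatives 8 left it uncalled. Of all genes 2.38% were called in that step, and none of the 4 was.

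In vehicle mice Hmox1 was 16.1, 24.9 and 41.6 normalised counts at 7 days (lowest, median, highest), and 13.9, 15.99, 20.1, 30.4 and 31.3 in the 5 mice at 30 days. Both sets overlapped the naive vehicle mice, and the differences were 0.40 ± 0.38 and 0.18 ± 0.43 (log2, SE), with adjusted p 0.783 and 0.993 in limma. No gene at all was called in vehicle mice at 7 days (0%), where 51 genes had an unadjusted p under 0.05, edgeR called 9 and DESeq2 12. At 30 days limma called 0 (0%), 29 had such an unadjusted p, edgeR called 0 and DESeq2 1. The step between day 1 and day 7 in vehicle mice was -1.11 ± 0.40 for Hmox1 (adjusted p 0.285), with 0% of genes called by limma, 66 at an unadjusted p under 0.05, 9 by edgeR and 14 by DESeq2.

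Ordered by their means, the groups ran for Hmox1 as naive PLX5622 (14.2 ± 5.04 normalised counts, SD), naive vehicle (19.8 ± 6.02), vehicle at 30 days (22.4 ± 8.10), vehicle at 7 days (27.5 ± 8.98), PLX5622 at 30 days (31.0 ± 8.84), PLX5622 at 7 days (37.2 ± 36.4), vehicle at 1 day (68.8 ± 46.7) and PLX5622 at 1 day (82.2 ± 69.5). No 2 neighbours in that order differed by more than the larger of their SDs. The spread among PLX5622 mice was wider after injury at these days, with a coefficient of variation of 84.6% at 1 day and 97.9% at 7 days, the group of mouse 709, against 35.6% in naive PLX5622 mice.

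Genes of other cell types moved at day 1 beside Hmox1. In PLX5622 mice the endothelial genes Pecam1 (0.82 ± 0.20 log2, SE, adjusted p 0.00549 in limma) and Eng (0.51 ± 0.17, adjusted p 0.0487) rose, as did the astrocyte genes Gfap (3.10 ± 0.56, adjusted p 0.000138) and Aldh1l1 (0.64 ± 0.17, adjusted p 0.0112). That was 2 of 7 endothelial and pericyte markers and 2 of 7 astrocyte markers measured. Eng was called by limma alone, so that edgeR and DESeq2 called 1 of the 7 endothelial and pericyte markers, Pecam1. The summed endothelial and pericyte level was 938 to 2398 normalised counts in PLX5622 mice at 1 day, against 761 to 1395 in naive ones, and the summed astrocyte level 16854 to 32275, against 16022 to 30389. In vehicle mice Gfap alone of these 14 markers was called at 1 day (2.83 ± 0.60, adjusted p 0.00376). Their part in the Hmox1 result was not tested.

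Cp, whose product is the multicopper ferroxidase ceruloplasmin, was also higher at 1 day. PLX5622 mice had 132, 277 and 433 normalised counts (lowest, median, highest) at 1 day, against 94.0, 129.6 and 159 in naive mice. Of the 8 injured mice 5 were above every naive mouse, and the other 3 lay between the naive median and the highest naive mouse. Cp rose by 1.06 ± 0.26 (log2, SE; n = 8 and 6), or 2.09-fold, with an adjusted p of 0.00510 in limma, and stayed called without any 1 mouse (0.96 to 1.13). The difference within extraction batches was 0.35, 1.33 and 1.14, so the first batch, with 3 injured and 2 naive mice, showed less of it.

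In vehicle mice Cp was 153, 245 and 375 normalised counts at 1 day (lowest, median, highest), against 103, 136 and 147 in naive mice. All 6 injured mice lay above all 7 naive mice, with no overlap. The fitted difference was nevertheless 0.72 ± 0.28 (log2, SE) with an adjusted p of 0.175 in limma, and it was not called. With only those 2 groups in the limma fit it was 1.21 with an adjusted p of 0.000423. That value compares mice on cartridges 3, 4 and 5 only, because cartridges 1 and 2 each held mice of just 1 of the 2 groups. The ratio of the 2 group means was 1.89, and the difference of the log2 means was 0.83, 0.39 and 1.34 within the extraction batches. The interaction between diet and injury at 1 day was 0.34 ± 0.38 (adjusted p 0.935).

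From 7 days on, Cp was not called against naive mice on either diet, and the groups overlapped, although many single mice lay above the naive range. In PLX5622 mice the values were 95.4, 159.9 and 500.4 normalised counts at 7 days (lowest, median, highest) and 100.8, 168 and 373 at 30 days. The value of 500.4 belonged to mouse 701. Cp was 0.52 ± 0.25 and 0.48 ± 0.26 above naive PLX5622 mice (log2, SE), with adjusted p 0.402 and 0.532 in limma, and 5 of 9 and 4 of 7 mice lay above every naive PLX5622 mouse. In vehicle mice the values were 116, 148 and 208 at 7 days, and 107, 149.5, 169, 184 and 262 at 30 days. These differences were 0.18 ± 0.26 and 0.30 ± 0.28 (adjusted p 0.830 and 0.993), with 4 of 7 and 4 of 5 mice above every naive vehicle mouse. The step between day 1 and day 7 in PLX5622 mice was -0.55 ± 0.23 (adjusted p 0.212), and without mouse 701 it was -0.75 and called (adjusted p 0.0336).

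Diet made no called difference to Cp at any stage. PLX5622 minus vehicle was -0.13 ± 0.26 in naive mice, 0.21 ± 0.26 at 1 day, 0.21 ± 0.24 at 7 days and 0.04 ± 0.28 at 30 days (log2, SE), with adjusted p between 0.797 and 0.975 in limma. The order of the means was naive PLX5622 (126 ± 24.6 normalised counts, SD), naive vehicle (132 ± 15.3), vehicle at 7 days (159.7 ± 36.4), vehicle at 30 days (174 ± 56.8), PLX5622 at 30 days (193 ± 97.0), PLX5622 at 7 days (197 ± 125), vehicle at 1 day (248 ± 83.3) and PLX5622 at 1 day (261 ± 109). No neighbours in it differed by more than the larger SD. Likeness over group means was taken, here and below, from the fitted log2 means with the cartridge as covariate. Over those 8 group means Cp was the gene most like Hmox1, and Hmox1 the one most like Cp, with r = 0.98. Across the 55 mice, after group and cartridge means were taken out, their r was only 0.27 (rho 0.34).

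**Figure D2:**
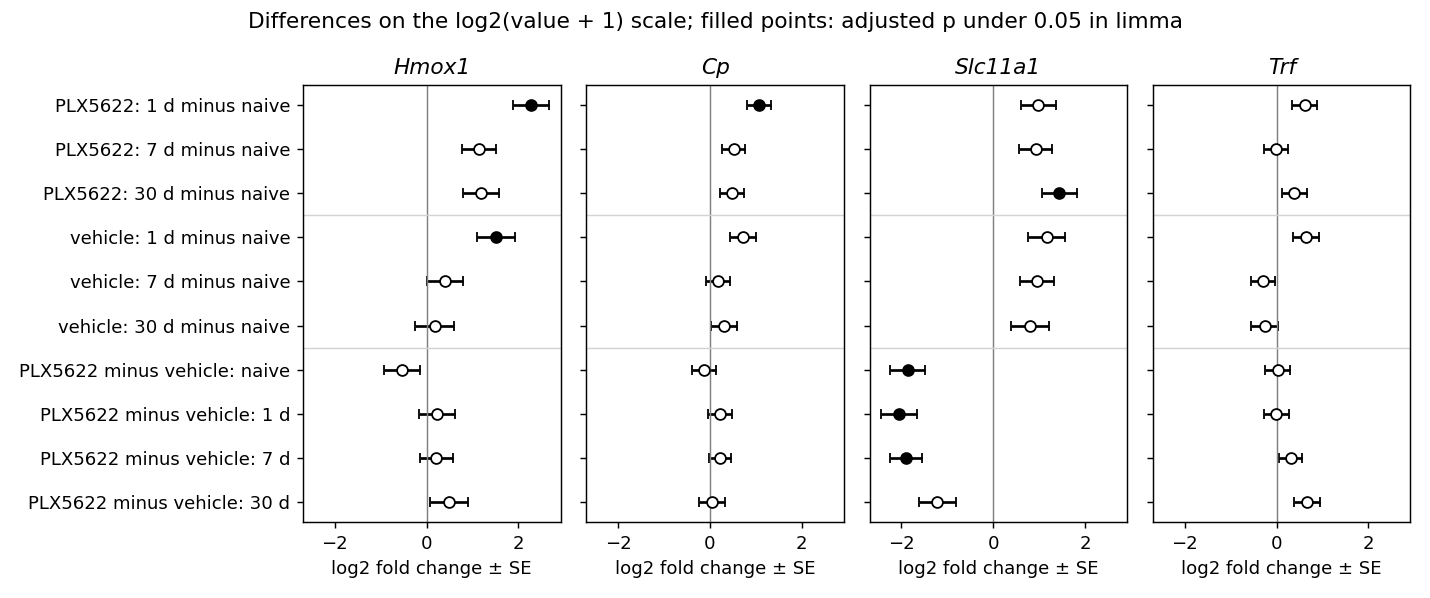
Log2 fold changes with their SE (horizontal axes) for the 4 genes in 10 comparisons (rows): TBI minus naive on each diet, then PLX5622 minus vehicle at each stage. Filled points were called by limma: Hmox1 at 1 day on both diets, Cp at 1 day and Slc11a1 at 30 days on PLX5622, and Slc11a1 between diets in naive mice (-1.87) and at 1 day (-2.05) and 7 days (-1.89).

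Slc11a1, the transporter gene of phagosomes, was the 1 member that followed the diet. The region around its gene start is shown because its expression ran with that of microglial genes and, over group means, of Spi1. That gene encodes the transcription factor PU.1 of myeloid cells. Within groups the r of Slc11a1 with Spi1 was 0.36, against 0.97 over the 8 group means. RefSeq's window for Slc11a1, 250 bases before to 50 after the start, is chr1:74374953-74375252 on the plus strand of GRCm38.p6:

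Slc11a1: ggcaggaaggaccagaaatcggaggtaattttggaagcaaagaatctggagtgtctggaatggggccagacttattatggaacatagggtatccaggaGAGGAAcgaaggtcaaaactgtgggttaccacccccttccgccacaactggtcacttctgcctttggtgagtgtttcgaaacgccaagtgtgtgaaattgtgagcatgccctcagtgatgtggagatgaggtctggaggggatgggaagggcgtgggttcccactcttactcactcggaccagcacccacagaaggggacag

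Capitals mark GAGGAA, the core letters that PU.1 is known to bind, searched on both strands. It occurs once, on the plus strand, starting at base 99 of the window, or position -152 from the gene start. The same letters occur in 9289 of 32851 such windows of mouse genes (28.3%), so a match is common and is a description of the sequence only. Windows were at hand for 2 of the 4 genes, Slc11a1 and Cp. Neither Cp window holds GAGGAA, the STAT letters TTCNNNGAA (8.30% of all windows) or the hypoxia core ACGTG (19.6%), and the Slc11a1 window holds neither of the last 2.

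In naive mice Slc11a1 was 0, 3.84 and 6.59 normalised counts (lowest, median, highest) on PLX5622, against 6.42, 15.7 and 22.5 on vehicle. Of the 6 PLX5622 mice 5 were below every vehicle mouse, and the highest lay just above the lowest vehicle mouse. Slc11a1 was lower on PLX5622 by a log2 change of -1.87 ± 0.39 (SE; n = 6 and 7), with an adjusted p of 0.000492 in limma. Of all genes 3.38% were called, and of the 4 only Slc11a1 was. In tissue RNA, fewer cells of a type and less RNA per cell cannot be told apart, and this holds for each of these genes.

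The same was seen after injury. At 1 day Slc11a1 was 1.87, 7.07 and 12.4 normalised counts in PLX5622 mice (lowest, median, highest), against 19.1, 24.2 and 47.1 in vehicle mice, and the diets did not overlap. The difference was -2.05 ± 0.38 (log2, SE, adjusted p 8.61e-05 in limma; n = 8 and 6), where 4.13% of all genes were called. At 7 days the values were 1.16, 6.63 and 10.7 in PLX5622 mice, against 9.67, 30.4 and 50.02 in vehicle mice. Of the 9 PLX5622 mice 7 lay below every vehicle mouse, and the difference was -1.89 ± 0.35 (adjusted p 7e-05; n = 9 and 7), again with 4.13% of genes called. Slc11a1 was the only one of the 4 called between diets at either day. Leaving out any 1 mouse left these 3 differences called, between -2.18 and -1.54, and within extraction batches they lay between -3.22 and -1.39. All 3 stayed called under the 10 alternative settings that gave a value, but their size varied. They ranged from -1.92 to -0.83 in naive mice, -2.17 to -1.20 at 1 day and -2.10 to -1.15 at 7 days. Within single cartridges, with 1 to 3 mice a side, they lay between -3.37 and -0.22, the smallest being that of naive mice on cartridge 1 (1 PLX5622 and 2 vehicle mice).

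At 30 days the gap was narrower. PLX5622 mice had 3.30, 10.9 and 12.9 normalised counts (lowest, median, highest), against 12.9, 15.8, 21.3, 28.7 and 42.5 in the 5 vehicle mice. Of the 7 PLX5622 mice 6 were still below every vehicle mouse, and the other 1 was level with the lowest. The difference was -1.22 ± 0.41 (log2, SE) with an adjusted p of 0.129 in limma, and was not called, where 2.63% of genes were and none of the 4 was. It was called by edgeR (-1.25, adjusted p 0.0393), by DESeq2 (-1.27, adjusted p 0.0306) and with a pseudocount of 10 (-0.77, adjusted p 0.0190). Within extraction batches it was -0.77, -1.17 and -2.07.

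Against naive mice of the same diet Slc11a1 was called in 1 comparison, at 30 days on PLX5622. The 30-day mice were above naive mice by 1.44 ± 0.39 (log2, SE; n = 7 and 6), with an adjusted p of 0.0246 in limma, and 6 of 7 lay above every naive PLX5622 mouse. Slc11a1 was the only member among the 2.25% of genes called there. The call did not hold in 6 of the 10 alternatives that gave a value: without the cartridge covariate (1.32, adjusted p 0.0556), with median centring (1.32, 0.0628), with equal totals (1.35, 0.0549), with a pseudocount of 10 (0.57, 0.157), in edgeR (1.31, 0.149) and in DESeq2 (1.27, 0.123). It was also lost without naive mouse 698, 705 or 736 (1.05, 1.41 and 1.41, adjusted p 0.140, 0.0536 and 0.0636 in limma), or 30-day mouse 715, 721 or 727 (1.41, 1.34 and 1.34, adjusted p 0.0721, 0.0815 and 0.0973). In naive PLX5622 mice Slc11a1 rested on 0 to 7 barcodes per mouse. Mouse 698, the 1 mouse with a count of 0, had a total of 230246, and at that depth a count of 0 allows up to 3 counts, or 8.30 normalised counts, which is counting error only.

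At 1 and 7 days on PLX5622, Slc11a1 was 0.98 ± 0.38 and 0.93 ± 0.36 above naive PLX5622 mice (log2, SE, adjusted p 0.127 and 0.232 in limma). Neither was called, and without PLX5622 mouse 740 the first was (1.23, adjusted p 0.0363). On vehicle the differences were 1.17 ± 0.40 at 1 day, 0.95 ± 0.37 at 7 days and 0.79 ± 0.41 at 30 days (adjusted p 0.117, 0.497 and 0.993). Above every naive vehicle mouse were 5 of 6 vehicle mice at 1 day and 5 of 7 at 7 days. The 1-day difference was called by edgeR (1.10, adjusted p 0.0451), DESeq2 (1.12, adjusted p 0.0338) and with a pseudocount of 10 (0.74, adjusted p 0.0326). The interactions of diet and injury were -0.19 ± 0.55 at 1 day, -0.03 ± 0.52 at 7 days and 0.65 ± 0.56 at 30 days (adjusted p 0.974, 0.994 and 0.994).

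Slc11a1 was the only one of the 4 genes whose group means separated by diet: all 4 PLX5622 means, 3.60 ± 2.27 (SD) in naive mice, 6.90 ± 2.80 at 7 days, 7.25 ± 3.71 at 1 day and 9.49 ± 3.77 at 30 days, were under all 4 vehicle means. Those were 14.7 ± 5.46 in naive mice, 24.3 ± 11.8 at 30 days, 28.7 ± 10.5 at 1 day and 29.0 ± 13.5 normalised counts at 7 days. Only the first step in that order, between naive PLX5622 mice and PLX5622 mice at 7 days, exceeded the larger SD. PLX5622 values were near the bottom of the panel: all 6 naive PLX5622 mice, 5 of 8 at 1 day, 7 of 9 at 7 days and 3 of 7 at 30 days had Slc11a1 under 8.63 normalised counts, below which lay 95% of the values of the panel's 20 lowest genes. Only 1 of the 25 vehicle mice did, a naive one.

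Microglial markers ran beside Slc11a1. Their summed level was 196 to 462 normalised counts in PLX5622 mice at 1 day, against 3046 to 4030 in vehicle mice, and 239 to 823, against 2034 to 6260, at 7 days, with 11 of 12 markers called lower both times. At 30 days it was 227 to 1921 in PLX5622 mice, against 2675 to 4215 in vehicle mice, with 10 of 12 called lower. Of the 12, 9 were called higher in PLX5622 mice at 30 days than in naive ones, among them C1qa (3.44, log2), Cx3cr1 (2.48) and Csf1r (1.44), the drug's target. Of 7 macrophage and leukocyte markers, among them the T cell genes Cd4 and Cd8a, 1 was called lower on PLX5622, the myeloid gene Cd14, at 1 day (-1.46 ± 0.43 log2, SE, adjusted p 0.0322 in limma) and 7 days (-1.44 ± 0.39, adjusted p 0.0145), and edgeR and DESeq2 called it on both days too. The part of the microglial genes in the Slc11a1 result was not tested.

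Trf, the transferrin gene, had the largest spread that went with the cartridge. PLX5622 mice had 919, 1851 and 4553 normalised counts (lowest, median, highest) at 1 day, against 489, 849 and 3379 in naive mice. The 2 top values belonged to mice 703 and 698, and the groups overlapped. The difference was 0.61 ± 0.27 (log2, SE) with an adjusted p of 0.195 in limma, and without naive mouse 698 it was 0.91 and called (adjusted p 0.0227). On vehicle the values were 1099, 1711 and 2762 at 1 day, against 584, 687 and 1808 in naive mice. All 6 injured mice were above the naive median and 2 above the highest naive mouse. That difference was 0.64 ± 0.29 (adjusted p 0.284), and 1.07 with an adjusted p of 0.00532 where only the 2 groups were fitted. As for Cp, the second value compares mice on cartridges 3, 4 and 5 only. Within extraction batches it was 0.03, 0.87 and 0.89 on PLX5622 and 0.84, 0.59 and 1.16 on vehicle. Of 10 oligodendrocyte and myelin genes limma called only Olig2, a lineage factor, at 1 day on PLX5622 (0.78 ± 0.20 log2, SE, adjusted p 0.0101), and edgeR and DESeq2 also called it higher. Both of those tools called Mal, a gene of compact myelin, lower in that comparison (-0.62 in each, adjusted p 0.0493 in edgeR and 0.0352 in DESeq2). On vehicle limma called 0 of the 10 at 1 day (1 at an unadjusted p under 0.05, 0 by edgeR and 1 by DESeq2). Their summed level on PLX5622 was 6118 to 13916 normalised counts at 1 day, against 5262 to 15665 in naive PLX5622 mice.

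At 7 days the values of Trf were 398, 1059 and 2921 normalised counts in PLX5622 mice (lowest, median, highest), and 418, 728 and 1468 in vehicle mice. Against day 1 the 7-day difference was -0.62 ± 0.24 on PLX5622 (log2, SE, adjusted p 0.171 in limma) and -0.93 ± 0.28 on vehicle (adjusted p 0.134), the second with 5 of 7 mice below every 1-day mouse. DESeq2 called the vehicle step (-0.93, adjusted p 0.0338), as did limma without vehicle mouse 704 (-1.09, adjusted p 0.0397). At 30 days Trf was 618, 1769.8 and 2212 in PLX5622 mice, against 505, 733, 1137, 1277 and 1425 in the 5 vehicle mice, and 4 of 7 PLX5622 mice were above all vehicle mice. The difference between diets was 0.67 ± 0.29 (adjusted p 0.387), and 0.76 with an adjusted p of 0.0280 where only these groups were fitted. In naive mice, at 1 day and at 7 days it was 0.03 ± 0.27, -0.01 ± 0.27 and 0.31 ± 0.25 (adjusted p 0.970, 0.997 and 0.917).

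Group means of Trf ran as vehicle at 7 days (858 ± 391 normalised counts, SD), naive vehicle (953 ± 459), vehicle at 30 days (1016 ± 385), PLX5622 at 7 days (1159 ± 775), naive PLX5622 (1217 ± 1106), PLX5622 at 30 days (1543 ± 570.4), vehicle at 1 day (1718 ± 595) and PLX5622 at 1 day (1958 ± 1148). No neighbours in that order differed by more than the larger SD. Cartridge means alone took up 49.6% of the variance of Trf across mice, against 27.3% for the 8 groups, and 30 of the 799 genes had a larger cartridge share. For Hmox1, Cp and Slc11a1 the cartridge took up 4.78%, 12.9% and 2.07%, and the groups 46.6%, 30.1% and 66.9%. The median gene had 18.7% by cartridge and 13.8% by group.

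The medians of Trf on cartridges 1 to 5 were 1769.8, 1447, 1277, 616 and 638 normalised counts, and the mice of cartridges 4 and 5 formed RNA extraction batch 3. Median total counts on cartridges 1 to 5 were 342217, 431300, 505694, 830966 and 916735, so depth was highest where Trf was lowest. The groups were spread over cartridges, though not every group was on each. Cartridge 2 held vehicle mice 697, 704 and 712 at 1 day but no naive vehicle mouse. Cartridge 1 held naive vehicle mice 691 and 695 but no vehicle mouse at 1 day. The fit takes the cartridge means out, and for those mice it does so through the other groups on their cartridge. In batch 3 the summed level of 10 oligodendrocyte and myelin genes also had a lower median, 7765 normalised counts, against 11659 and 11690 in the others. Single myelin genes had cartridge shares of up to 35.7% (Mbp). The part of extraction, cartridge or depth in the level of Trf was not tested.

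**Figure D3:**
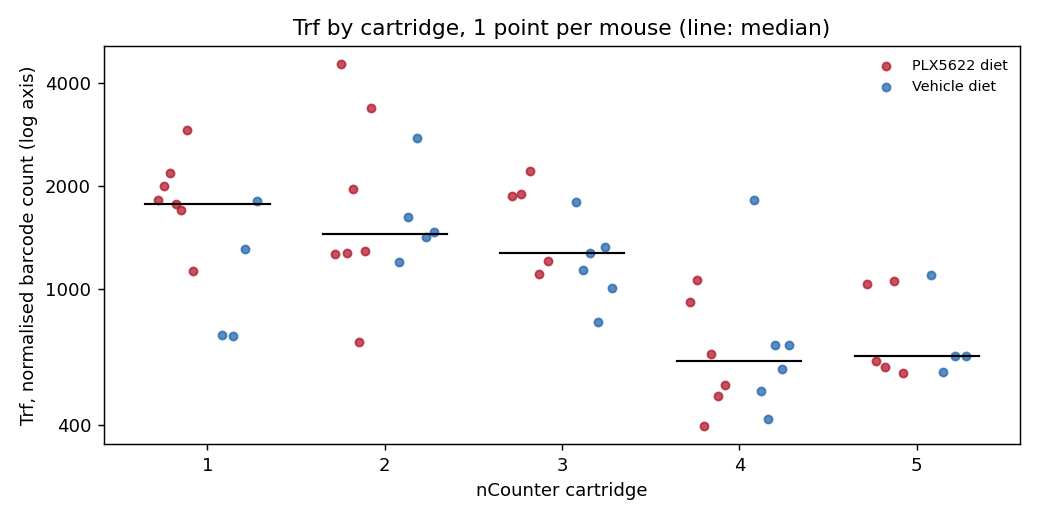
Normalised counts of Trf (log axis) in every mouse by nCounter cartridge (1 to 5), with PLX5622 mice in red left of vehicle mice in blue and a black line at the median of each cartridge. The medians are 1769.8, 1447 and 1277 on cartridges 1 to 3, and 616 and 638 on cartridges 4 and 5.

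Mice of 1 group differed among themselves, and each of the 4 genes did so alongside 1 or more lists of marker genes. The relations were not tested against each other. Deviations of log2 values from group and cartridge means were compared with the mean deviation of 6 marker lists, as 24 relations chosen after the data were seen, over 55 mice with 100000 permutations. Both measures come from the same library. The permutations exchanged mice of all groups freely, although the spread differed between groups. For Cp the coefficient of variation of normalised counts was 11.6% in naive vehicle mice and 63.5% in PLX5622 mice at 7 days. The permutation p-values thus assume an equal spread that the groups did not have. The smallest p that 100000 permutations can give is 1e-05, which adjustment turned into 8e-05 for r and 0.00012 for rho. Where these adjusted values stand, they mark that limit and do not rank the relations. Trf went with the oligodendrocyte and myelin list (r = 0.72, rho = 0.73, adjusted permutation p 8e-05 and 0.00012). Without the 2 mice farthest out r was 0.69, and in the 3 extraction batches 0.82, 0.72 and 0.66. The genes most like Trf were Mag (r = 0.80) and Gjb1 (0.77), both of myelin, and Cers2 (0.71), which makes very long chain ceramides.

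Cp went with the macrophage and leukocyte list (r = 0.79, rho = 0.68, adjusted permutation p 8e-05 and 0.00012), and r was 0.70 without the 2 mice farthest out and 0.38, 0.86 and 0.88 within batches. The genes nearest to Cp were Ccr2, a chemokine receptor of monocytes (r = 0.73), Cd4, a co-receptor of helper T cells (0.72), and Ccl2, a ligand of that chemokine receptor (0.64). Of the other list genes, Itgal and Cd14 had r of 0.55 and 0.49. Mrc1 and Cd163 of resident macrophages had r of only 0.14 and 0.08, and the T cell gene Cd8a 0.10. Ccr2 itself rose at 1 day in PLX5622 mice (1.89 ± 0.49 log2, SE, adjusted p 0.00896 in limma), the only one of the 7 that was called there. DESeq2 also called it (1.88, adjusted p 0.0435), and edgeR called 0 of the 7. The summed list was 46.3 to 107 normalised counts in PLX5622 mice at 1 day, against 38.2 to 69.2 in naive PLX5622 mice, so these genes were measured at low levels. Mouse 701, highest for Cp, was also highest of its group for this list, at 227 normalised counts, against a group median of 62.9. The part of these cells in the Cp result was not tested.

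Slc11a1 went with the microglial list less tightly (r = 0.47, rho = 0.45, adjusted permutation p 0.00158 and 0.00236), with r of 0.41 without the 2 mice farthest out and 0.20, 0.68 and 0.44 within batches. Its nearest genes were the complement gene C1qa (r = 0.55), Csf1r (0.49) and Gpr84 (0.48). Over the 8 group means the nearest were C3ar1 (r = 0.99), Nlrp3 (0.97) and Spi1 (0.97). Hmox1 went with the endothelial and pericyte list (r = 0.57, rho = 0.46, adjusted permutation p 8e-05 and 0.00236), with r of 0.43 without the 2 mice farthest out and 0.67, 0.71 and 0.38 within batches. Its nearest genes were Tnfrsf1a, a receptor of tumour necrosis factor (r = 0.64), Eng, a coreceptor of endothelium (0.62), and Msn, which links actin to the membrane (0.62). The astrocyte list went with 3 of the 4 genes: Hmox1 (r = 0.44, rho = 0.51, adjusted permutation p 0.003 and 0.00054), Trf (r = 0.50, rho = 0.56, adjusted permutation p 0.0006 and 0.00016) and Cp (r = 0.32, rho = 0.39, adjusted permutation p 0.0433 and 0.00957). For Hmox1, r was thus higher with the endothelial and pericyte list, and rho with the astrocyte list. With the astrocyte list its r was 0.34 without the 2 mice farthest out, and 0.07, 0.47 and 0.72 within batches. Trf also went with the microglial list (r = 0.33, rho = 0.40, adjusted permutation p 0.0381 and 0.00957) and, by r but not by rho, with the neuronal list (r = 0.35, rho = 0.27, adjusted permutation p 0.0279 and 0.0905). By rho alone, Hmox1 went with the microglial list (rho = 0.37, adjusted permutation p 0.0147) and Slc11a1 with the endothelial and pericyte list (rho = 0.33, adjusted permutation p 0.0373).

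**Figure D4:**
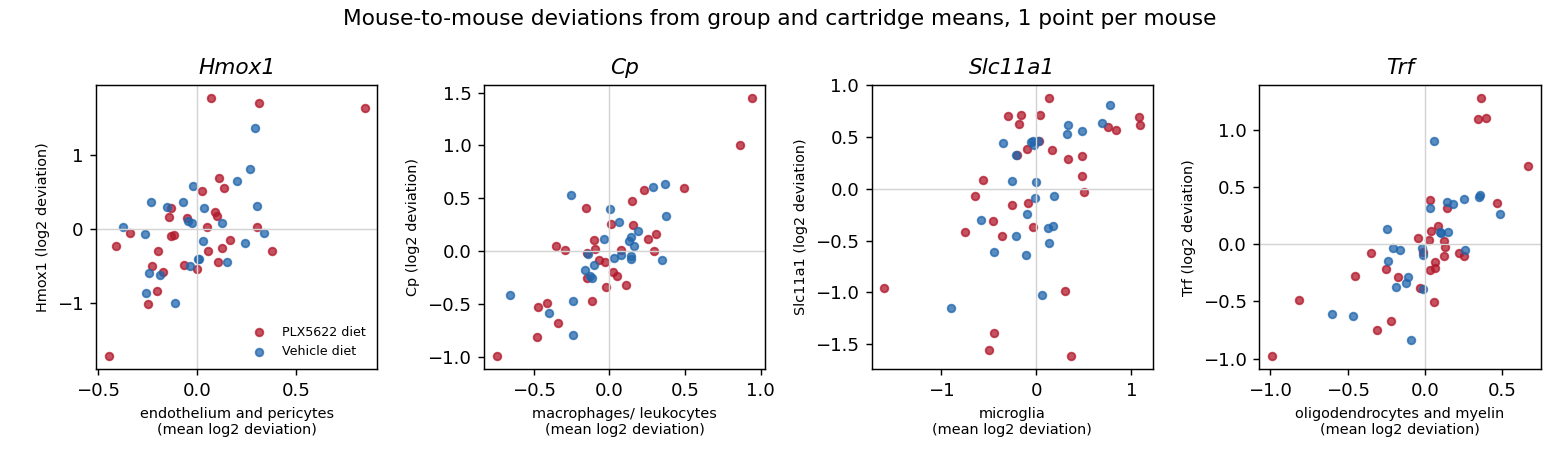
Deviation of each gene from its group and cartridge mean (vertical axes, log2) against the mean deviation of a marker list (horizontal axes, log2) in 55 mice, with PLX5622 mice in red and vehicle mice in blue. From left to right the pairs are Hmox1 with endothelium and pericytes (r = 0.57), Cp with macrophages and leukocytes (0.79), Slc11a1 with microglia (0.47) and Trf with oligodendrocytes and myelin (0.72). By rho, Hmox1 went more closely with the astrocyte list (0.51) than with the endothelial and pericyte list (0.46).

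Few partners of these genes are on the panel. Of 34 further heme and iron genes 3 were measured: Cd163, the receptor that takes up hemoglobin bound to haptoglobin, Lrp1, a receptor for heme bound to hemopexin, and App, the amyloid precursor gene. In all 17 comparisons limma called 0 of them, with 1 unadjusted p under 0.05 among 51 tests, and edgeR and DESeq2 also called 0. In PLX5622 mice at 1 day Cd163 was -0.16 ± 0.29 and Lrp1 0.21 ± 0.14 against naive PLX5622 mice (log2, SE, adjusted p 0.806 and 0.432 in limma). The median difference of the 3 was -0.06, against 0.10 over all genes.

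Of 20 genes of the NRF2 pathway and the oxidative stress response, 9 were measured. Limma called 0 of 9 in any comparison, with 8 unadjusted p under 0.05 among 153 tests. By edgeR and by DESeq2 there was 1, the quinone reductase gene Nqo1, which was higher at 7 days than at 1 day in PLX5622 mice (0.65 in both, adjusted p 0.0330 and 0.0342). Nfe2l2, which encodes the factor NRF2 that drives Hmox1, was 51.7 ± 15.95 normalised counts at 1 day in PLX5622 mice, against 36.3 ± 4.81 in naive ones (SD, n = 8 and 6), a difference of 0.43 ± 0.19 (log2, SE, adjusted p 0.183 in limma). At 7 and 30 days on PLX5622 the Nfe2l2 difference was 0.53 ± 0.18 and 0.56 ± 0.19 (adjusted p 0.130 and 0.133). Its step between day 1 and day 7 on that diet was 0.09 ± 0.17. On vehicle it differed from naive mice by 0.29 ± 0.20, -0.03 ± 0.18 and -0.02 ± 0.20 at 1, 7 and 30 days (adjusted p 0.602, 0.959 and 0.993). Nqo1, another NRF2 target, was 15.8 ± 5.39 at 1 day, against 19.9 ± 4.40 in naive PLX5622 mice, a difference of -0.35 ± 0.22 (adjusted p 0.432).

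The remaining tests called none of the 4 genes. Interactions of diet and injury at 7 days were 0.74 ± 0.54 for Hmox1, 0.34 ± 0.36 for Cp and 0.28 ± 0.37 for Trf, and at 30 days 1.01 ± 0.57, 0.17 ± 0.38 and 0.64 ± 0.40 (log2, SE), with adjusted p between 0.812 and 0.994 in limma. At 7 days 0% of all genes were called in that interaction, with 34 at an unadjusted p under 0.05 and 0 by edgeR and by DESeq2, and at 30 days 0.375% were. The step between day 7 and day 30 had 0% of genes called on PLX5622 (33 unadjusted, 1 by edgeR and 1 by DESeq2) and 0% on vehicle (71 unadjusted, 6 by edgeR and 4 by DESeq2). Members moved by -0.04 to 0.51 in that step on PLX5622 and by -0.22 to 0.12 on vehicle. All comparisons with naive mice on 1 diet share the same naive mice, so their values are not independent of each other.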

How the data were processed

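The authors deposited a linear signal per gene, at or above 0, in which barcode counts are divided by a size factor for each mouse. DESeq2 is named in the submitters' processing notes, and how background was handled is unstated there. Per the labels' protocols, RNA was pre-amplified, with the number of cycles guided by Gapdh and Actb. Whole counts were recovered from the steps of the low values for 100% of values at a tolerance of 0.02, and totals ran between 176038 and 1208609.

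Because the values are normalised, log2(value + 1) was tested with limma 3.58.1 (R 4.3.3, eBayes with trend) in 1 fit of 8 groups with the cartridge (5 levels) as covariate. Tests were two-sided with Benjamini-Hochberg adjustment over 799 genes and a threshold of 0.05. edgeR 4.0.16 and DESeq2 1.42.0 were run on the recovered counts as alternatives. The scripts were tested on simulated data. Correlations used SciPy 1.17.1 and permutation tests.

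The 4 genes and the lists (heme and iron, NRF2, microglia, macrophages and leukocytes, astrocytes, oligodendrocytes, endothelium, choroid plexus, blood, neurons) were chosen with earlier results of these data known, and 1 gene of the lists is not reported here. Named beside them are list genes that were called or are direct partners, and the 3 genes most alike to each member. Lrp1, Cd163, Nqo1 and mice with high values were named after their values were seen. Alternatives were no covariate, extraction batch, both, 2 scalings, a pseudocount of 10, a filter at a mean of 20, no trend, only the groups compared, edgeR, DESeq2 and each mouse left out. Sequences are RefSeq's, GRCm38.p6. Of 6 neuronal genes measured, limma called 0 in any comparison, with 9 unadjusted p under 0.05 among 102 tests, edgeR called 0 and DESeq2 1.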

Additional observations from a re-analysis of the deposited data

Results flagged for a closer look

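In each of the 8 groups the highest and lowest mouse of each gene was compared with the rest by Dixon's test, in 32 sets of values, and 5 stood apart. Chance flags about 1 in 20 groups if values are normally distributed. Normalised counts were tested without taking logs, and every mouse flagged was the highest of its group.

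Hmox1 was 131 normalised counts in PLX5622 mouse 709 at 7 days, against a group median of 22.5. That mouse also had the highest summed endothelial and pericyte level of its group, 1687, against a median of 1030.1. Hmox1 was 33.1 in naive vehicle mouse 714, against a group median of 18.1.

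Cp was 500.4 in PLX5622 mouse 701 at 7 days, against a group median of 159.9. Its summed macrophage and leukocyte level was 227, against a median of 62.9, while its Hmox1 (21.9) was near the median of 22.5. Its total count, 277458, was the lowest of its group.

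Trf was 4553 in PLX5622 mouse 703 at 1 day, against a group median of 1851, and 3379 in naive PLX5622 mouse 698, against a median of 849. Mouse 698 had the highest summed oligodendrocyte and myelin level of its group, 15665, against a median of 8719, and mouse 703 the second highest of its group, 13516, against 8895. Both were also highest of their groups for the summed astrocyte level, 30389, against a median of 16780, for mouse 698 and 32275, against 22344, for mouse 703. Mouse 698 was highest of its group as well for the microglial sum (332, against a median of 213) and for the macrophage and leukocyte sum (69.2, against 51.0). Both libraries were shallow, with totals of 353364 and 230246 for mice 703 and 698.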

How the results depend on the processing

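The 4 genes in 17 comparisons gave 68 results, 7 of them called. Under 11 alternatives 45 kept their direction and their side of the threshold throughout, 45 did so with each of the 55 mice left out in turn, and 36 did in both. Called results that kept their call under every alternative that gave a value were Hmox1 at 1 day on both diets, Cp at 1 day on PLX5622, and Slc11a1 between diets in naive mice and at 1 and 7 days. Leaving out genes of a mean under 20 removed Slc11a1, so that it has no value there. The cause of the changes below was not tested.

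The Slc11a1 rise at 30 days on PLX5622 lost its call without the covariate (1.32), with median centring (1.32), with equal totals (1.35), with a pseudocount of 10 (0.57), in edgeR (1.31) and in DESeq2 (1.27). Calls were gained by DESeq2 for Hmox1 at 7 days on PLX5622 (1.28), for its step to day 7 on that diet (-1.38) and for the Trf step to day 7 on vehicle (-0.93). edgeR (-1.30) and median centring (-1.13) also gained the Hmox1 step. With only the groups compared, calls were gained for Hmox1 at 30 days on PLX5622 (1.12), Cp and Trf at 1 day on vehicle (1.21 and 1.07) and Trf between diets at 30 days (0.76). A pseudocount of 10, edgeR and DESeq2 gained Slc11a1 at 1 day on vehicle (0.74, 1.10 and 1.12) and between diets at 30 days (-0.77, -1.25 and -1.27).

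Signs turned only for values that were not called. With cartridge and extraction batch together these were Hmox1 between days 7 and 30 on PLX5622 (-0.053), Cp in the same step (0.0077), Trf at 7 days on PLX5622 (0.15), between naive diets (-0.085), between diets at 1 day (0.090) and in the interaction at 1 day (0.17). Extraction batch alone turned that Cp step (0.036) and Trf at 7 days on PLX5622 (0.039). No covariate turned the Cp step (0.011), Slc11a1 in the interaction at 7 days (0.029) and Trf at 7 days on PLX5622 (0.062), at 30 days on vehicle (0.12) and between diets at 1 day (0.082). Median centring turned Cp between naive diets (0.037), Trf between diets at 1 day (0.082) and Trf between days 7 and 30 on vehicle (-0.090). Equal totals turned Cp (-0.0027) and Trf (-0.097) in the last step. Only the groups compared turned Cp between diets at 30 days (-0.089), Slc11a1 in the step to day 7 on PLX5622 (0.015), and Trf between naive diets (-0.21), between diets at 1 day (0.014) and in the interaction at 1 day (0.040). edgeR turned Hmox1 between days 7 and 30 on PLX5622 (-0.24), Cp between naive diets (0.025), Slc11a1 in the step to day 7 on PLX5622 (0.13), Trf between diets at 1 day (0.0061) and Trf between days 7 and 30 on vehicle (-0.068). DESeq2 turned the first 3 of these and the last (-0.18, 0.020, 0.068 and -0.088).

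With 1 mouse left out, 10 of the 55 fits lost the call of Hmox1 at 1 day on vehicle (1.27 to 1.52 in those, 1.27 to 1.76 over all fits). The Slc11a1 call at 30 days on PLX5622 was lost in 6 fits (1.05 to 1.41 in those, 1.05 to 1.64 over all fits). Calls were gained in 7 fits for the Hmox1 step to day 7 on PLX5622 (-1.37 to -1.14 in those, -1.37 to -0.87 over all fits). Only 1 fit each gained the Cp step on that diet (-0.75, with -0.75 to -0.42 over all fits) and the Trf step on vehicle (-1.09, with -1.09 to -0.70). At 1 day on PLX5622, 1 fit each gained Slc11a1 (1.23, with 0.60 to 1.23 over all fits) and Trf (0.91, with 0.44 to 0.91). Uncalled values crossed 0 for Hmox1 between diets at 1 day (-0.053 to 0.50) and 7 days (-0.040 to 0.37) and between days 7 and 30 on PLX5622 (-0.062 to 0.27). For Cp they did between days 7 and 30 on PLX5622 (-0.25 to 0.17) and on vehicle (-0.043 to 0.33), between diets at 30 days (-0.16 to 0.22) and in the interaction at 30 days (-0.030 to 0.34). For Slc11a1 they did in the step to day 7 on PLX5622 (-0.31 to 0.17), between days 7 and 30 on vehicle (-0.38 to 0.021) and in the interactions at 1 day (-0.46 to 0.066) and 7 days (-0.37 to 0.24). For Trf they did at 7 days on PLX5622 (-0.15 to 0.29), between diets in naive mice (-0.23 to 0.11) and at 1 day (-0.22 to 0.21), between days 7 and 30 on vehicle (-0.086 to 0.21) and in the interaction at 1 day (-0.27 to 0.18).

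Counts over all genes moved by more than 1.5 times in several comparisons. Against naive mice on PLX5622 they were 33 to 68 at 1 day (56 in the report) and 3 to 28 at 7 days (12), on vehicle 13 to 65 at 1 day (18), 0 to 12 at 7 days (0) and 0 to 1 at 30 days (0). Between diets 22 to 42 were called at 1 day (33), and in the interactions 0 to 2 at 1 day (1) and 0 to 5 at 30 days (3). In the steps between days they were 2 to 57 (19) and 0 to 1 (0) on PLX5622, and 0 to 14 (0) and 0 to 6 (0) on vehicle. With 1 mouse left out, the counts against naive mice were 32 to 66, 6 to 23 and 10 to 23 on PLX5622 at 1, 7 and 30 days (18 at 30 days in the report), and 9 to 28, 0 to 8 and 0 to 1 on vehicle. Between diets at 30 days they were 13 to 22 (21), in the interactions at 1 and 30 days 0 to 1 and 0 to 5, and in the steps 9 to 35 and 0 to 2 on PLX5622 and 0 to 11 and 0 to 1 on vehicle. Median centring moved the median of all genes by 0.17 between naive diets, 0.13 between diets at 30 days, -0.10 at 1 day and -0.12 at 30 days on PLX5622, -0.13 in the interaction at 7 days and -0.12 between days 7 and 30 on vehicle. Equal totals moved it by 0.13, 0.11, 0.10 (1 day on vehicle), -0.15 and -0.13 (interactions at 1 and 7 days) and -0.13 (the last step).

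No paired analysis was possible because the mouse numbers are identities of single animals and link no mice across groups. Depth limits Slc11a1 most, with 0 to 7 counts in naive PLX5622 mice.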
